A study of Mus musculus with 23 samples.

Results

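Wnt ligands, their Frizzled and Lrp receptors, and the secreted proteins that restrain or strengthen them were read in mouse melanomas. Members were chosen by symbol: numbered Wnt, Fzd, Sfrp, Dkk, Rspo and Lgr4 to Lgr6 genes, with Wif1, Lrp5, Lrp6, Axin2, Znrf3, Rnf43 and Notum. This gave 51 of the 37620 gene identifiers in the files: 19 Wnt ligands, 10 Frizzled receptors, 2 Lrp co-receptors, 7 R-spondins and Lgr receptors, 10 secreted inhibitors and 3 feedback genes. RNA was counted per gene in 23 libraries from melanomas induced by ultraviolet light. The groups are 7 HP primary melanomas (genotype Nme1wt / Nme2wt), 7 HPN primary melanomas (Nme1+/- / Nme2+/-), 7 lymph node metastases and 2 lung metastases, with all metastases of the HPN genotype. The labels used here spell out neither other alleles nor the age of the mice nor any pooling, so what all groups share beyond ultraviolet induction is not stated. Because node libraries 7a and 7b carry the same number in their titles, their counts were added for the tests, leaving 6 node samples. No label says whether the tumours come from separate animals, so p-values measure only the spread between these samples.

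Wnt proteins are secreted lipid-modified ligands that bind a Frizzled receptor together with Lrp5 or Lrp6, after which beta-catenin is spared from degradation and activates genes with TCF and LEF factors. R-spondins bound to Lgr receptors strengthen the signal by removing the ubiquitin ligases Znrf3 and Rnf43, which clear Frizzled from the cell surface. Sfrp proteins and Wif1 bind Wnts, Dkk proteins block Lrp5 and Lrp6, and Notum strips the lipid. In skin, Wnt signals from the epidermis and the hair follicle govern follicle growth and melanocyte stem cells.

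Promoter sequences are shown for Rspo4, Wnt4 and Wnt16, whose levels fell together in lymph node metastases and held under most settings tried, and for Wnt11, which holds a TCF or LEF core motif. Each is a window of 300 bases, from 250 before to 50 after the RefSeq start site in GRCm38.p6, on the plus strand, written 5′ to 3′ in lower case with motif letters in capitals. They lie at chr2:151842677-151842976 (Rspo4), chr4:137277385-137277684 (Wnt4), chr6:22287977-22288276 (Wnt16) and chr7:98834862-98835161 (Wnt11, 1 of 2 windows).
Rspo4: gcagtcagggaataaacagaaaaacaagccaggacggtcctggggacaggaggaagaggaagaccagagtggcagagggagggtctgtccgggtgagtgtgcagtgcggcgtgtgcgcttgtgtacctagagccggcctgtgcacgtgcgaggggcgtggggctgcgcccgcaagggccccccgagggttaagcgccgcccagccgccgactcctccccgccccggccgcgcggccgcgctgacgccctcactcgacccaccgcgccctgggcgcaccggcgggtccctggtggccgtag
Wnt4: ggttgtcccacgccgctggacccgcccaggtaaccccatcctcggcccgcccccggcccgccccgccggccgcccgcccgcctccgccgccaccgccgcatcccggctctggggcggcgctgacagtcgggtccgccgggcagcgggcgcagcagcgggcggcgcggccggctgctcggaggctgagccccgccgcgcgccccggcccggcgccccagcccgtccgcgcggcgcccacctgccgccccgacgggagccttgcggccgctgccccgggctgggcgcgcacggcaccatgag
Wnt16: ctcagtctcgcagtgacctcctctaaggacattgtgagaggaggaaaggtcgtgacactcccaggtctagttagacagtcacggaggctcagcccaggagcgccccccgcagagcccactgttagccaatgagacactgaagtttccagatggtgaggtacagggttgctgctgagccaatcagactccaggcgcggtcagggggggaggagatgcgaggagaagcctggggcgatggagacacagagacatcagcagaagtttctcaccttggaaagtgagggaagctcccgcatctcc
Wnt11: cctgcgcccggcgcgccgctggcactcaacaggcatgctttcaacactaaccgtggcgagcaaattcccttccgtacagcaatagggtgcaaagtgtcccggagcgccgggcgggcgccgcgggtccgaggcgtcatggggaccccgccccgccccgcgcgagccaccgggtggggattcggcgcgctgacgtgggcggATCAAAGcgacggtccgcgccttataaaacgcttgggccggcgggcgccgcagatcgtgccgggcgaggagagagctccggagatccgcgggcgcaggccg
The motifs searched were CTTTGAT and CTTTGAA on both strands, which share their first 6 letters. In Wnt11 the match reads ATCAAAG and begins 51 bases before the start site. Of the 51 members, 32 were matched, with 36 windows. Windows of Wnt5b, Wnt11 and Dkk1 held a motif, 3 of 36 (8.33%), beside 8.65% of all 32851 windows. GC content had a median of 67.2% over the member windows and 52.7% over all windows, and the median number of CpG sites was 25 and 7. The windows of Rspo4, Wnt4 and Wnt16 held no match, and their GC content was 71.0%, 84.3% and 58.0%.

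In units of 1e6, gene counts ran from 18.9 to 89.5 per library. The entry for reads of low alignment quality is above 0 in 8 libraries (nodes 7a, 7b and 8, HPN primary 7 and HP primaries 3, 6, 7 and 9) and 0 in 15. Nme1, the targeted nucleoside diphosphate kinase gene, lay between 7.85 and 29.3 CPM (counts per 1e6 counts) in HP primaries and between 5.2 and 13.2 CPM in HPN primaries. Its neighbour Nme2 lay between 0.32 and 0.863 CPM and between 0.0685 and 0.408 CPM, so the genotypes overlapped for both. Both were lower in HPN than in HP primaries, by log2 differences of -0.69 (SE 0.27) for Nme1 and -1.02 (SE 0.38) for Nme2. Neither passed the test (edgeR adjusted p = 0.951 for both). Nme2 was near the floor in HPN primaries, where 3 counts correspond to between 0.0517 and 0.147 CPM. Melanocyte markers (12 genes) summed to 4809 to 65766 CPM in every library. Summed keratinocyte markers (16 of 17 in the files) ran from 8.5 to 24707 CPM in primaries, from 46.7 to 129.9 CPM in nodes, and were 84.8 and 114.2 CPM in the lungs. B cell markers (12 genes) ran from 309.0 to 2894 CPM in nodes and from 2.9 to 35.9 CPM in primaries. The lung libraries differed from each other, with lung epithelium markers (12 genes) at 5.66 CPM in lung 3 and 8219 CPM in lung 4.

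The primaries held mainly receptors and the inhibitor-like Dkk3, while most ligands were low. Compared per length, as CPM per kb of exon, Dkk3 was far above the rest, with a mean of 218 ± 111 (SD, n = 7) in HPN primaries. This member of the Dickkopf family is secreted and is known for weak or no binding to Lrp co-receptors. The next in order were the receptors Fzd7 at 27 ± 7.5, Fzd1 at 21.3 ± 6.37 and Lrp6 at 19.0 ± 3.28 CPM per kb (SD, n = 7), and neighbours in this order differed by less than either SD. Lrp5 (11.4 ± 1.31) and the beta-catenin target Axin2 (10.7 ± 5.50) came after them in CPM per kb and also lay within each other's spread. The ligands with the highest means were Wnt10a, Wnt4 and Wnt5a, at 2.23 ± 3.10, 1.77 ± 2.24 and 1.32 ± 1.39 CPM per kb (SD, n = 7), and for each the SD exceeded the mean. Wnt1, Wnt8b and Dkk4 had 6, 6 and 9 counts over all 23 libraries together, and Wnt8a and Dkk1 had 16 and 34. A floor of 3 counts corresponds to 0.0335 CPM in the deepest and 0.159 CPM in the shallowest library. Dkk3 and Fzd7 were also first and second per length in HP primaries, nodes and lungs, followed by Fzd1 and Lrp6, which in nodes stood in the opposite order.

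**Figure D1:**
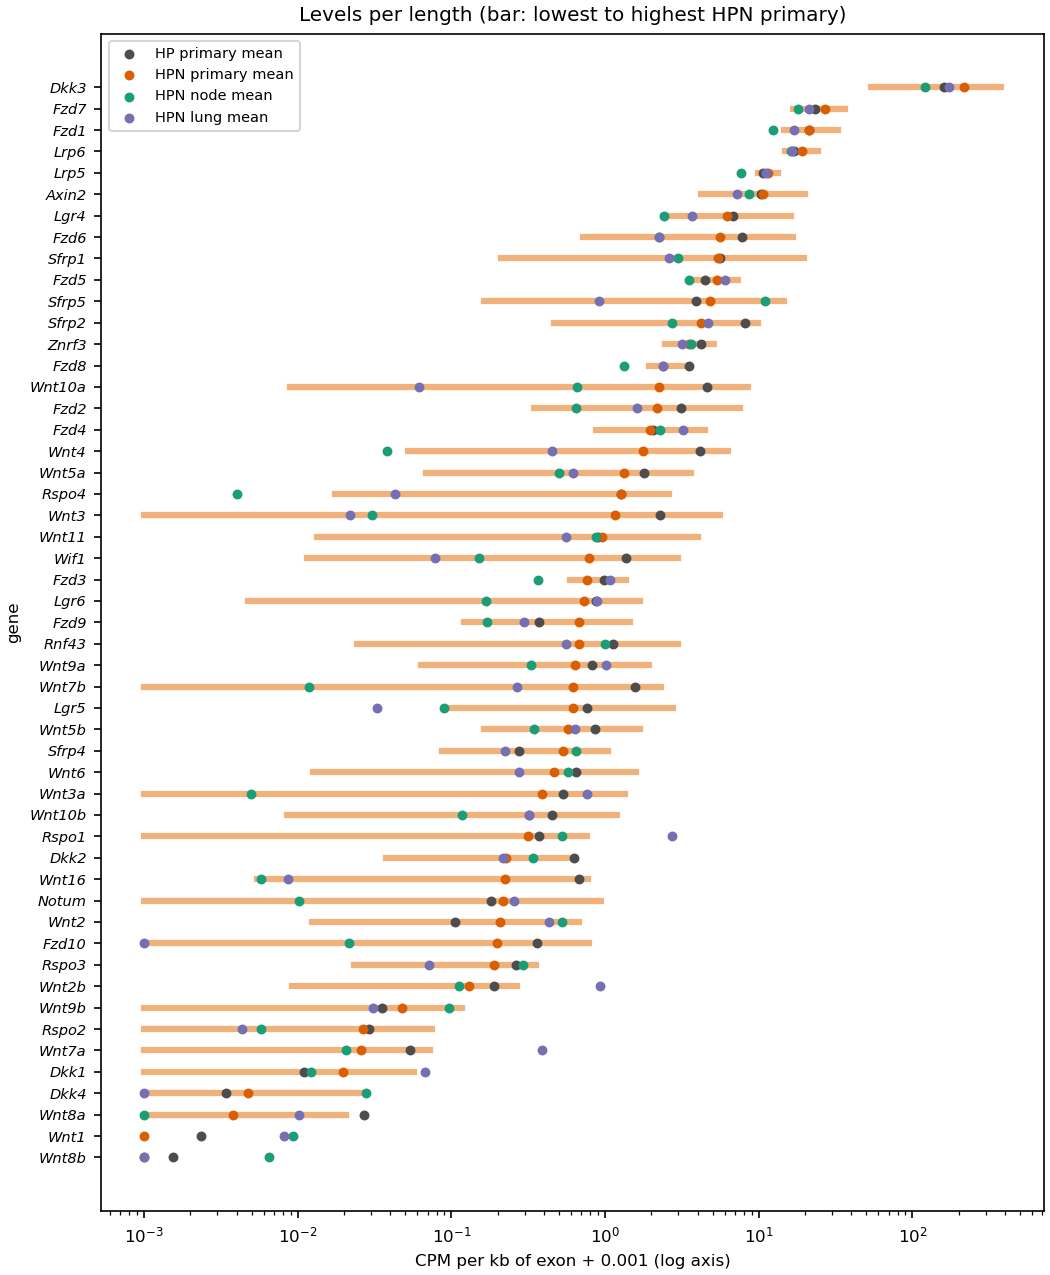
Mean CPM per kb of exon, plus 0.001, of the 51 members on a log axis, with 1 point for each of the 4 groups and a bar from the lowest to the highest HPN primary. Dkk3 leads, followed by Fzd7, Fzd1 and Lrp6 with short bars, and the ligands have bars that span several orders of magnitude.

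The co-receptors and several Frizzled receptors were steady over the 14 primaries, while many ligands and some other Frizzled receptors were not. On the log2(CPM + 0.5) scale the SD over the 14 primaries was 0.31 for Lrp6, 0.32 for Lrp5, 0.38 for Fzd7, 0.40 for Fzd5 and 0.44 for Fzd1. In CPM, Lrp6 ran from 164.0 over a median of 238.6 to 360.5. Fzd6, Fzd2, Fzd10 and Fzd4 were wider, with SDs of 1.81, 1.57, 1.12 and 0.96, and Fzd6 ran from 2.79 over 22.3 to 90.3 CPM. The widest were ligands, at an SD of 2.37 for Wnt10a, 2.17 for Wnt7b, 2.16 for Wnt3 and 2.16 for Wnt4. Wnt10a, a ligand of skin appendages, ran from 0 over a median of 4.03 to 39.1 CPM. Wnt4, which is made by many epithelia, ran from 0.214 over 4.76 to 50.4 CPM.

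Several of the wide ligands were highest in the same tumour. HP primary 6 held the highest level of Wnt3, Wnt4, Wnt5a, Wnt7b, Wnt10a and Wnt16 among the primaries, at 24.5, 50.4, 44.7, 25.2, 39.1 and 7.01 CPM, and it also had the highest keratinocyte sum. Other wide members peaked elsewhere: Sfrp2 in HP primary 4 (41.1 CPM), Wnt11 and Sfrp1 in HPN primary 1 (16.7 and 86.5 CPM), and Sfrp5 in HPN primary 6 (27.9 CPM, against 4.06 CPM in HP primary 6). The keratinocyte sums of the 14 primaries have a wide gap. They lie from 8.5 to 101.6 CPM in 6 samples (HP primaries 5, 7 and 9 and HPN primaries 2, 5 and 7) and from 1368 to 24707 CPM in the other 8. Other cell types divided the same samples. Summed fibroblast markers lay from 272.3 to 2309.1 CPM in the 6 and from 3563.0 to 27751.8 CPM in the 8. Macrophage sums lay from 74.0 to 310.5 CPM and from 508.9 to 1424.8 CPM. T cell and adipocyte sums did not overlap either, whereas melanocyte, hair follicle, endothelium and B cell sums did. This gap was seen in the data and defines no group of the study, so the ranges that follow are a description with no test. Wnt3, a ligand of epithelia, lay between 0 and 0.103 CPM in the 6 samples and between 0.711 and 24.5 CPM in the 8. Wnt7b, another epithelial ligand, lay between 0 and 0.0788 CPM in the 6 and between 0.922 and 25.2 CPM in the 8. For Wnt10a these ranges were 0 to 0.357 and 1.74 to 39.1 CPM, and for the ubiquitin ligase gene Rnf43 they were 0.0917 to 0.35 and 1.29 to 23 CPM. None of these pairs of ranges overlapped. The same held for Wnt3a, Wnt6, Wnt9a, Wnt9b, Wnt11, Fzd4, Fzd10 and Wif1. The share of all genes that divide this way was not counted, so the division cannot be read as particular to these members.

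Other members did not divide this way. Lrp6 lay between 204.8 and 360.5 CPM in the 6 samples and between 164.0 and 286.6 CPM in the 8. Axin2 lay between 23.1 and 77.9 CPM in the 6 and between 27.4 and 110.4 CPM in the 8. Rspo4, an R-spondin known for its role in nails, was at 3.90 CPM in HPN primary 7, where the keratinocyte sum was 89.1 CPM. Wnt16, a ligand known in bone and hair follicle, was at 4.02 CPM in HP primary 9, where that sum was 20.1 CPM. In bulk samples, fewer cells of a type and less RNA per cell cannot be told apart.

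**Figure D2:**
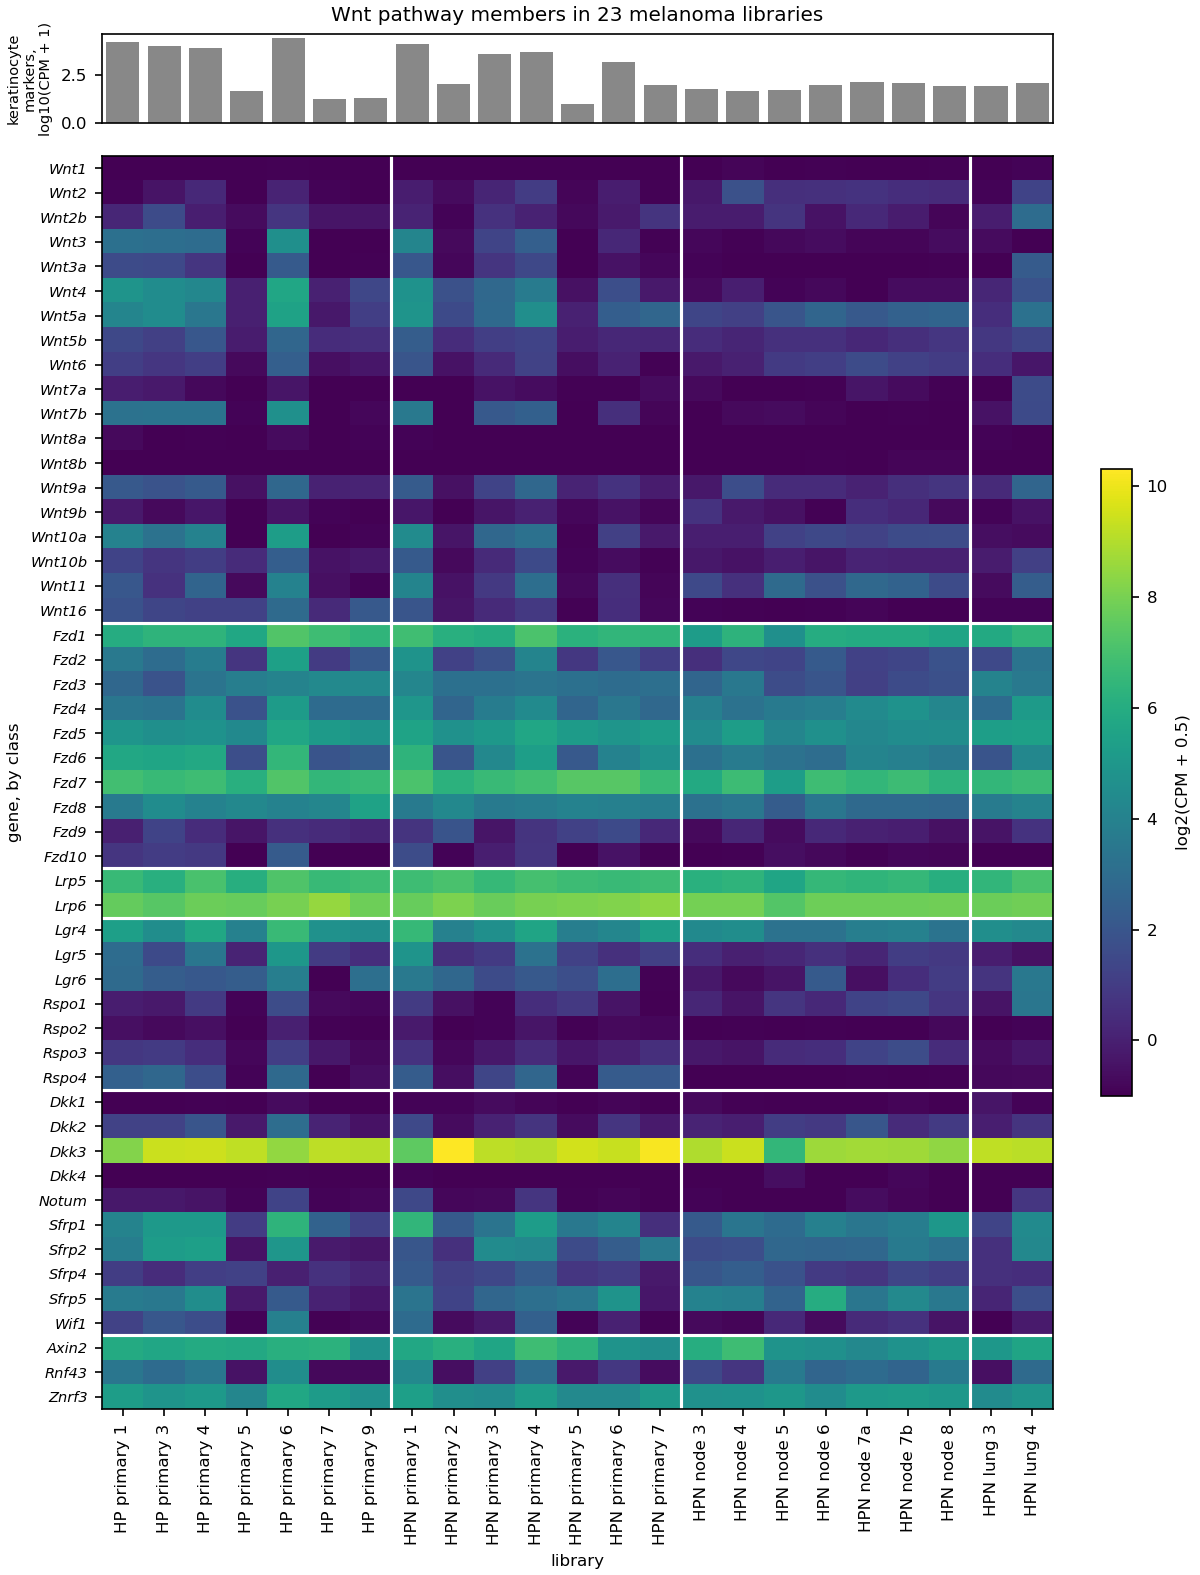
Heat map of log2(CPM + 0.5) of the 51 members (rows, by class) in the 23 libraries (columns, by group), with a bar chart of summed keratinocyte markers as log10(CPM + 1) above it. The rows of Lrp5, Lrp6, Fzd1, Fzd5 and Fzd7 are even across the primaries, and rows such as Wnt3, Wnt7b, Wnt10a, Fzd2 and Fzd6 are brightest in primaries with tall bars.

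**Figure D3:**
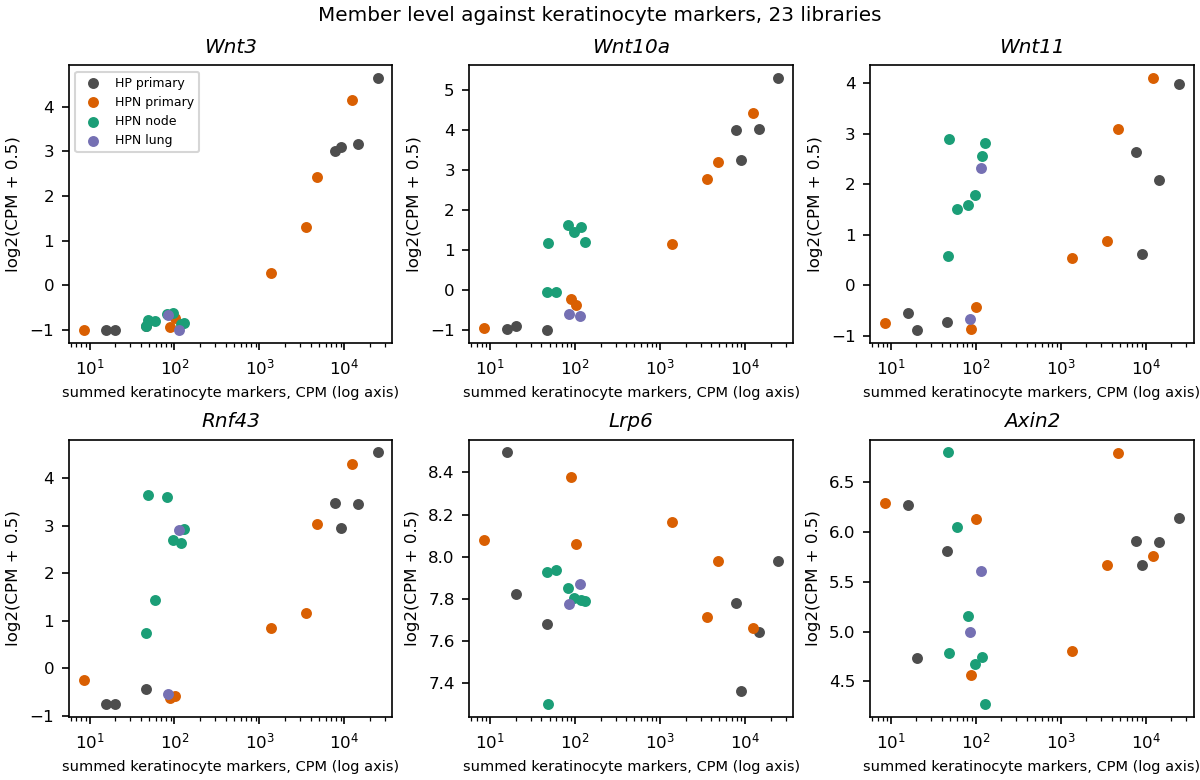
Log2(CPM + 0.5) of 6 members against the summed keratinocyte markers in CPM (log axis), 1 point per library, coloured by group. Wnt3 is near its floor in every library with a sum below 130 CPM, while Wnt11, Rnf43 and Wnt10a are higher in nodes than in primaries with similar sums, and Lrp6 and Axin2 show no such order.

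The comparison of genotypes asks whether the heterozygous Nme1 and Nme2 state is accompanied by other levels in primary tumours. No member passed the test between HPN and HP primaries. Of the 41 members tested, 0 were called at an edgeR adjusted p under 0.05, where 0.0% of all 16578 genes tested were called. At an unadjusted p under 0.05 edgeR gave 1 member and 477 genes, and DESeq2 called 0 genes (851 at an unadjusted p under 0.05). Of the tested members, 10 had a positive and 31 a negative log2 difference (median -0.37), beside 7050 and 9528 of all genes (median -0.05). All 16 keratinocyte markers tested were negative as well (median -1.09). In contrast, all 11 hair follicle and all 12 skeletal muscle markers tested were positive (medians 0.76 and 1.05). Of 12 melanocyte markers, 11 were positive (median 0.47). No marker was called, and the part of these cell types in the member values was not tested.

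By role, 1 of 13 ligands tested had a positive difference, and the median over them was -0.59. Wnt4 ran from 0.483 over 18.4 to 50.4 CPM in HP primaries and from 0.214 over 2.97 to 26.3 CPM in HPN primaries, a log2 difference of -1.24 (SE 1.13). Wnt16 ran from 0.786 over 2.04 to 7.01 CPM and from 0.0194 over 0.774 to 3.39 CPM, a log2 difference of -1.59 (SE 0.84). The groups overlapped for both ligands. Fzd8, a receptor for canonical ligands, was the 1 member under the unadjusted threshold (edgeR adjusted p = 0.951). It ran from 11.6 over 17.8 to 44.8 CPM in HP and from 11.6 over 13.5 to 18.8 CPM in HPN primaries, and the highest value is that of HP primary 9. Dkk3 ran from 299.5 over 581.7 to 703.2 CPM in HP and from 180.1 over 664.6 to 1265 CPM in HPN primaries (log2 0.41, SE 0.33). For the co-receptors the log2 differences were small and had narrow errors, at 0.14 (SE 0.15) for Lrp6. Axin2, the usual readout of beta-catenin activity, ran from 26.1 over 59.1 to 76.9 CPM in HP and from 23.1 over 53.6 to 110.4 CPM in HPN primaries, and these ranges overlap.

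Lymph node metastases were set against HPN primaries to ask how tumours at that site differ from primaries of the same genotype. Of the members, 5 ligands, Rspo4, Lgr4, Lgr5, Lrp5 and 5 Frizzled receptors fell in the nodes, whereas secreted inhibitors and feedback genes did not pass the test. The falls were of different size: 5 ligands and Rspo4 fell by more than 5 on the log2 scale to near 0, and Frizzled receptors and Lrp5 fell by 0.60 to 1.99. Of the 44 members tested, 14 fell and 0 rose at an edgeR adjusted p under 0.05. Over all 19152 genes tested, 9.81% fell and 12.7% rose. The median log2 difference was -0.87 over the members tested and -0.08 over all genes.

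Among the 15 ligands tested, 5 fell (Wnt3, Wnt3a, Wnt4, Wnt7b and Wnt16), and the median was -1.44. Wnt4 (ENSMUSG00000036856) ran from 0.214 over 2.97 to 26.3 CPM in the 7 primaries and from 0.0432 over 0.0994 to 0.469 CPM in the 6 nodes. Of the nodes, only node 4 reached the range of the primaries. The log2 difference was -5.61 (SE 1.15, edgeR adjusted p = 0.00391). Wnt16 (ENSMUSG00000029671) ran from 0.0194 over 0.774 to 3.39 CPM in primaries and from 0 over 0.0287 to 0.0361 CPM in nodes, with 5 counts in all node libraries and 207 in the primaries. HPN primary 5 lay inside the node range. The log2 difference was -5.33 (SE 1.09, edgeR adjusted p = 0.00392).

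Wnt3 (ENSMUSG00000000125) and Wnt7b (ENSMUSG00000022382), both ligands of epidermis and other epithelia, showed the same form. Wnt3 ran from 0 over 0.711 to 17.2 CPM in primaries and from 0.0293 over 0.0793 to 0.151 CPM in nodes (log2 -5.35, SE 1.54, edgeR adjusted p = 0.0231). Wnt7b ran from 0 over 0.922 to 11.3 CPM and from 0 over 0.0367 to 0.13 CPM (log2 -5.90, SE 1.69, edgeR adjusted p = 0.023). The 3 HPN primaries with low keratinocyte sums (2, 5 and 7) lay inside the node range for Wnt7b, and for Wnt3 they lay inside (2) or below it (5 and 7). In the annotation used here, 6.6% of the exon bases of Wnt7b are shared with a gene on the opposite strand, and the strand setting of the counting is not stated. Wnt3a (ENSMUSG00000009900), a strong canonical ligand, had 2 counts in all node libraries and 225 in the primaries, a pooled ratio of primaries to nodes of 104.8 (95% interval 28.7 to 870.5, counting error only). It ran from 0 over 0.237 to 3.73 CPM in primaries and from 0 to 0.0361 CPM in nodes (edgeR adjusted p = 0.0176). HPN primary 5 was at 0 as well.

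Not all ligands were low in nodes. Wnt10a ran from 0.0194 over 1.74 to 21.1 CPM in primaries and from 0.469 over 1.97 to 2.59 CPM in nodes (log2 -1.83, SE 1.07, edgeR adjusted p = 0.223). Wnt5a, which acts mainly outside the beta-catenin route, ran from 0.525 over 6.19 to 28.1 CPM and from 1.70 over 4.02 to 5.94 CPM (log2 -1.44, SE 0.78, edgeR adjusted p = 0.186). For both, all nodes lay inside the range of the primaries. Wnt11, which was picked after its values were seen, lay between 0.996 and 6.95 CPM in nodes, against 0.051 to 16.7 CPM in primaries (log2 -0.18, SE 1.14).

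**Figure D4:**
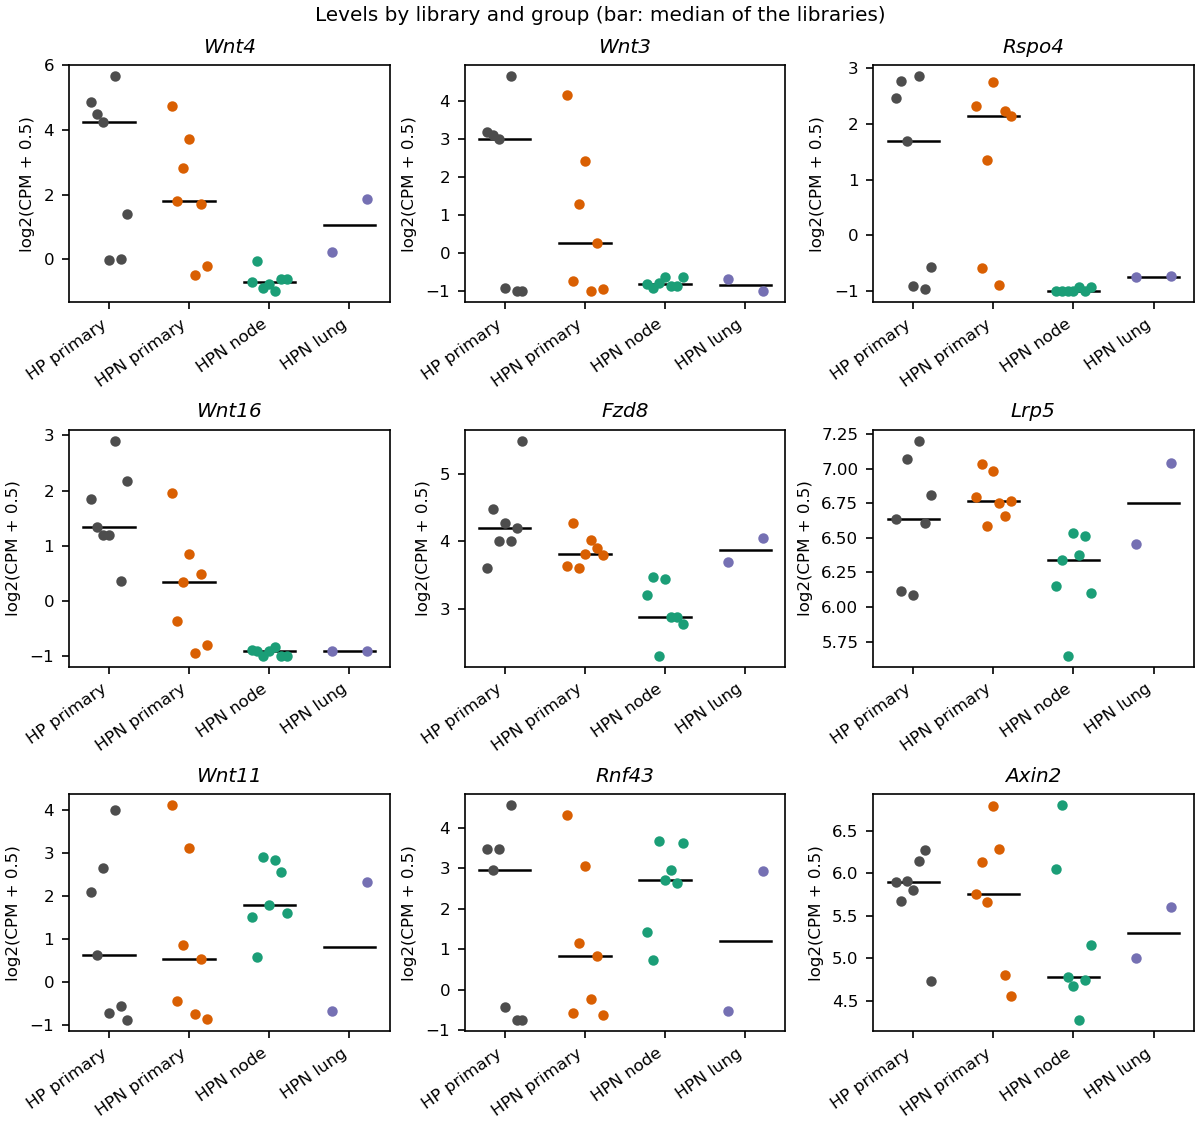
Log2(CPM + 0.5) of 9 members in each library, in columns for the 4 groups, with a bar at the median. Wnt4, Wnt3, Rspo4 and Wnt16 lie near the floor in the nodes, Fzd8 in nodes lies below every HPN primary, and Axin2, Rnf43 and Wnt11 overlap between the groups.

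Of the 10 Frizzled receptors 5 fell in nodes (Fzd1, Fzd3, Fzd5, Fzd8 and Fzd9), and the median was -1.0. Fzd8 (ENSMUSG00000036904) ran from 11.6 over 13.5 to 18.8 CPM in primaries and from 4.41 over 7.78 to 10.6 CPM in nodes, so every node lay below every HPN primary. The log2 difference was -0.88 (SE 0.20, edgeR adjusted p = 0.00819). Fzd1, a receptor of the canonical route, ran from 61.9 over 84.5 to 136.7 CPM and from 24.4 over 53.7 to 79.0 CPM (log2 -0.81, SE 0.26, edgeR adjusted p = 0.0377). Its groups overlapped. Fzd5 ran from 26.0 over 36.3 to 50.6 CPM and from 17.2 over 22.3 to 38.3 CPM (log2 -0.65, SE 0.20, edgeR adjusted p = 0.0315). This receptor shares 17.8% of its exon bases with a gene on the opposite strand. Fzd3, known for planar polarity and axon guidance, ran from 7.51 over 8.54 to 17.6 CPM and from 2.08 over 3.15 to 11 CPM (log2 -1.11, SE 0.38, edgeR adjusted p = 0.0479), with node 4 the highest node. Fzd9 averaged 1.55 ± 1.06 CPM (SD, n = 7) in primaries and 0.39 ± 0.278 CPM (n = 6) in nodes (log2 -1.99, SE 0.63, edgeR adjusted p = 0.0346). Fzd7, the Frizzled receptor with the highest level per length, ran from 75.5 over 116.2 to 165.7 CPM and from 38.9 over 88.5 to 109.3 CPM (log2 -0.61, SE 0.24, edgeR adjusted p = 0.0774).

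Of the 2 co-receptors, Lrp5 (ENSMUSG00000024913) fell. It ran from 95.7 over 108.4 to 130.9 CPM in primaries and from 49.6 over 75.7 to 92.5 CPM in nodes, with no overlap. The log2 difference was -0.60 (SE 0.15, edgeR adjusted p = 0.0122). Lrp6, the co-receptor with the higher level, ran from 201.9 over 266.8 to 332.5 CPM and from 157.1 over 226.5 to 244.7 CPM (log2 -0.26, SE 0.13, edgeR adjusted p = 0.158). The difference between the falls of Lrp5 and Lrp6 was not tested.

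The signal-strengthening arm fell in part: 3 of the 6 R-spondin and Lgr genes tested fell (Rspo4, Lgr4 and Lgr5). Rspo4 (ENSMUSG00000032852) had 2 counts in all node libraries and 706 in the primaries, a pooled ratio of 328.8 (95% interval 90.7 to 2720.1, counting error only). It ran from 0.0389 over 3.90 to 6.17 CPM in primaries and from 0 to 0.0291 CPM in nodes (edgeR adjusted p = 0.000544). The lowest primary (HPN 5, 2 counts) and the highest node (node 8, 1 count) are both under the floor of 3 counts, so a gap between the groups was not detectable at this depth. Lgr5, a stem cell marker of the hair follicle, ran from 0.931 over 1.68 to 28.2 CPM and from 0.498 over 0.934 to 1.31 CPM (log2 -2.86, SE 0.86, edgeR adjusted p = 0.029). HPN primary 1 held 28.2 CPM and HPN primary 4 held 9.06 CPM, and the other 5 primaries were at or below 1.77 CPM. Lgr4, the most widely expressed of the Lgr receptors, ran from 13.9 over 24.4 to 95.1 CPM and from 8.99 over 11.9 to 22.5 CPM (log2 -1.41, SE 0.46, edgeR adjusted p = 0.0404). Lgr6 ran from 0.0255 over 4.02 to 11.5 CPM and from 0.117 over 0.44 to 4.04 CPM (log2 -2.18, SE 1.01, edgeR adjusted p = 0.128).

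Secreted inhibitors and feedback genes gave 0 calls among 8 and 3 tested. Dkk3 ran from 180.1 over 664.6 to 1265 CPM in primaries and from 87.8 over 406.3 to 683.3 CPM in nodes (log2 -0.87, SE 0.42, edgeR adjusted p = 0.146). Sfrp1 ran from 0.918 over 11.2 to 86.5 CPM and from 4.05 over 10.9 to 30.9 CPM (log2 -0.93, SE 0.85), and Sfrp5 ran from 0.306 over 8.27 to 27.9 CPM and from 5.61 over 14.6 to 63.9 CPM (log2 1.15, SE 0.76). Both are Wnt-binding proteins, and neither passed (edgeR adjusted p = 0.434 and 0.276). Axin2 ran from 23.1 over 53.6 to 110.4 CPM and from 22.6 over 31.2 to 111.3 CPM (log2 -0.34, SE 0.43, edgeR adjusted p = 0.587). The ligase gene Znrf3 ran from 19.3 over 23.3 to 40.6 CPM and from 22.1 over 28.5 to 35.6 CPM, a log2 difference of 0.01 (SE 0.22). Rnf43, its homologue, ran from 0.153 over 1.29 to 19.4 CPM and from 1.17 over 6.21 to 12.1 CPM (log2 0.51, SE 1.09). All nodes lay inside the range of the primaries for Znrf3 and Rnf43.

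**Figure D5:**
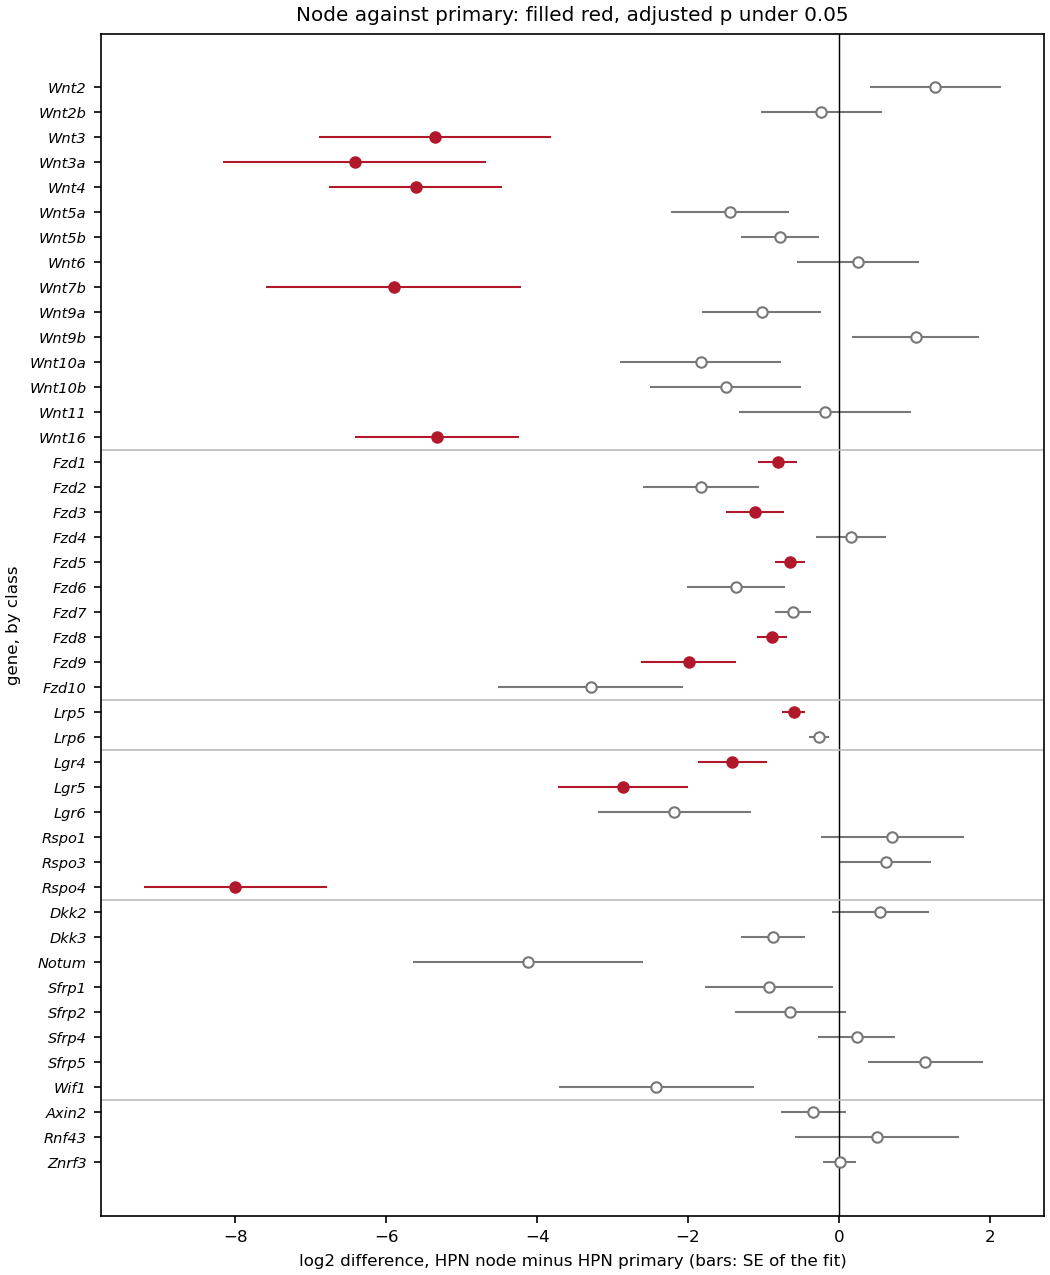
Log2 difference of HPN node minus HPN primary for the 44 members tested, by class, with bars of 1 SE and filled red points for an edgeR adjusted p under 0.05. The 14 red points all lie left of 0, with Rspo4 and 5 ligands beyond -5 and the Frizzled receptors and Lrp5 between -2 and 0.

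Markers of other cell types moved with these falls. Of 16 keratinocyte markers tested 15 fell in nodes, as did all 11 hair follicle and all 12 skeletal muscle markers tested, while all 12 B cell and all 12 T cell markers rose. None of 12 melanocyte markers passed (median -0.70). With the mean of the keratinocyte markers as a covariate, 6 members fell (Rspo4, Wnt4, Fzd8, Fzd9, Lrp5 and Dkk3), where 11.1% of all genes fell. Under it 9 members rose (Wnt2, Wnt6, Wnt9b, Wnt10a, Wnt10b, Wnt11, Fzd4, Dkk2 and Rnf43), where 15.3% of all genes rose. The difference of Wnt16 under that covariate was -1.81 (edgeR adjusted p = 0.0594), that of Wnt3 turned to 1.95 and that of Wnt7b to 1.26 (edgeR adjusted p = 0.141 and 0.536). With the mean of the melanocyte markers as a covariate, 12 members fell, where 8.19% of all genes fell. Of these, 10 were calls of the main fit, and Fzd10 and the secreted inhibitor Notum were new (edgeR adjusted p = 0.0172 and 0.0469). Fzd1, Fzd3, Fzd5 and Fzd9 were not called under it (edgeR adjusted p = 0.0635, 0.0642, 0.0526 and 0.0823). Their log2 differences there were -0.79, -1.11, -0.63 and -1.73. The values of the primaries with low keratinocyte sums can be set beside the nodes directly, as a description with no test. Fzd8 lay between 13.4 and 44.8 CPM in the 6 such primaries, above all node libraries (4.41 to 10.6 CPM), whereas Wnt3 lay between 0 and 0.103 CPM there and between 0.0293 and 0.151 CPM in node libraries. Wnt11 lay between 0.0394 and 0.241 CPM in these 6 primaries and between 0.996 and 6.95 CPM in node libraries, and Rnf43 between 0.0917 and 0.35 CPM and between 1.17 and 12.1 CPM.

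Single samples and the pairing bear on these calls. Rspo4, Wnt4, Wnt16, Wnt3a, Fzd8 and Lrp5 were called in all 13 fits that left out 1 sample. Wnt3 and Wnt7b were called in 11 of 13, Fzd5 and Lgr5 in 7, Fzd9 and Lgr4 in 6, Fzd1 in 5 and Fzd3 in 1. The number of members that fell was 6 without node 7, 7 without node 5 or node 8, and 9 without node 3 or node 6. Over the 13 fits, between 945 (without node 5) and 2648 (without HPN primary 1) of all genes fell. With title number as a block, 5 fell (Rspo4, Wnt4, Wnt16, Lgr4 and Fzd1, edgeR adjusted p = 0.00718, 0.0176, 0.0199, 0.0427 and 0.0477), where 1.93% of all genes fell. The other 9 were not called under the block (edgeR adjusted p from 0.0594 for Fzd5 to 0.315 for Wnt3), and the same samples without it gave 4, where 5.26% of all genes fell. Some of these differences were about as large under the block, at -0.86 for Fzd8, -0.58 for Lrp5, -0.69 for Fzd5, -1.07 for Fzd3 and -6.18 for Wnt3a on the log2 scale. Others were smaller, at -1.58 for Fzd9, -1.48 for Lgr5, -2.62 for Wnt3 and -3.86 for Wnt7b. The block fit holds only title numbers found at more than 1 site, so HPN primaries 1 and 2 and node 8 were not in it. HPN primary 1 held the highest HPN primary level of Lgr5, Wnt3 and Wnt7b (28.2, 17.2 and 11.3 CPM), and HPN primary 2 that of Fzd9 (3.35 CPM). The parts of the block and of the missing samples in these changes were not tested. In the libraries with no reads listed at low alignment quality, 3 fell (Rspo4, Wnt4 and Wnt16), where 2.07% of all genes fell. DESeq2 called 18 members lower, where it called 14.2% of all genes lower.

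Lung metastases were compared with HPN primaries and with nodes, from 2 lung samples. No member passed against primaries, and 1 member passed against nodes. Of 44 members tested against primaries 0 were called by edgeR, where 0.266% of all genes were called in either direction. At an unadjusted p under 0.05 edgeR gave 8 members, beside 1394 of all 19152 genes tested. DESeq2 called 3 members lower in lungs (Lgr5, Wnt10a and Rspo4, adjusted p = 0.0132, 0.0222 and 0.0289), where it called 0.992% of all genes lower. The same primaries serve in both comparisons with HPN primaries.

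Some members with low values in both lungs had also fallen in nodes, and Wnt10a had not. Rspo4 was at 0.096 and 0.102 CPM in lungs 3 and 4, which is 3 counts in each. Wnt16 was at 0.032 and 0.0341 CPM, and Wnt10a was at 0.16 and 0.137 CPM. Lgr5 was at 0.448 and 0.205 CPM, below all HPN primaries. Fzd8, at 12.4 and 16.1 CPM, and Dkk3, at 591.6 and 563.2 CPM, lay inside the range of the HPN primaries in both lungs. Lrp5 lay below that range in lung 3 (87.1 CPM) and just above it in lung 4 (131.6 CPM), and Fzd6 was at 3.33 and 18.4 CPM. Fzd8 in both lungs was above all nodes, at a log2 difference of 0.89 (SE 0.28) from nodes that did not pass (edgeR adjusted p = 0.0807).

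The 2 lungs differed in several ligands. Lung 4, with the high lung epithelium and mesothelium sums (8219 and 256.6 CPM, against 5.66 and 2.88 CPM in lung 3), was also the higher in the following members. Wnt3a was at 4.23 CPM (124 counts) in lung 4 and at 0 in lung 3, which allows up to 0.0961 CPM. Wnt4 was at 3.11 and 0.672 CPM, Wnt7b at 2.39 and 0.224 CPM, and Lgr6 at 11.1 and 1.12 CPM. Chosen after their values were seen, the ligands Wnt2b and Wnt7a were at 7.37 and 2.46 CPM in lung 4 and at 0.448 and 0 CPM in lung 3, and Rspo1 was at 10.2 and 0.256 CPM. The part of lung tissue in these values was not tested. Against nodes, Wnt3a was the 1 member called higher in lungs (log2 7.39, SE 1.94, edgeR adjusted p = 0.0438), where 1.96% of all genes were higher. This rested on lung 4: without it the log2 difference was -1.90 (edgeR adjusted p = 0.863). Leaving out node 3, 5, 6, 7 or 8 ended the call too.

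Other genes of the pathway were read from a list of 85 symbols. Between genotypes 0 of 77 tested were called, and in lungs against primaries 0 of 82. In nodes 6 of 82 rose and 19 fell, with a median of -0.50, beside the 12.7% and 9.81% of all genes that rose and fell. By role, both secretion genes fell: Porcn, the acyltransferase that lipidates Wnts, and Wls, their carrier. Of 21 co-receptor and planar polarity genes 9 fell and 1 rose, of 26 cytoplasmic genes 5 fell, and of 13 nuclear genes 3 rose. Of 12 other secreted inhibitors tested 2 rose and 1 fell. Of 13 common targets tested Jun and Ccnd1 fell, and Tcf7, which is also in the nuclear list, rose (median -0.63). Shisa3, which retains Frizzled receptors inside the cell, had a mean of 0.17 ± 0.13 CPM (SD, n = 7) in the primaries against 22.1 ± 18.3 CPM (n = 6) in the nodes (log2 6.92, SE 0.89, edgeR adjusted p = 0.000212). Ctnnbip1, an inhibitor of beta-catenin binding to TCF, averaged 23.7 ± 3.70 CPM (n = 7) in primaries and 11.2 ± 2.30 CPM (n = 6) in nodes (log2 -1.11, SE 0.16, edgeR adjusted p = 0.000438). Nkd2, an inhibitor of Dishevelled, averaged 100.7 ± 44.7 CPM (n = 7) in primaries and 22.5 ± 12.6 CPM (n = 6) in nodes (log2 -2.20, SE 0.38, edgeR adjusted p = 0.0012). Kremen1, a partner of Dkk proteins, and Vangl2, a core gene of planar polarity, fell by 0.95 and 1.09 on the log2 scale (edgeR adjusted p = 0.00246 and 0.00385).

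In lungs against nodes 5 of the 82 were higher and 3 lower, with a median of 0.34, where 1.96% of all genes were higher and 3.09% lower. Ctnnbip1 and Vangl2, which fell in nodes, were higher in lungs than in nodes by 1.08 (SE 0.22) and 1.27 (SE 0.30) on the log2 scale (edgeR adjusted p = 0.0246 and 0.0352). Gpc3, a glypican that binds Wnts, was at 6.40 CPM in lung 3 and 127.5 CPM in lung 4, and nodes ran from 1.23 to 4.45 CPM (edgeR adjusted p = 0.0155). Most of that difference in means comes from lung 4, and the value of this gene in the fit without lung 4 is not given here. Jun, a gene activated by Wnt and many other signals, averaged 292.1 ± 89.8 CPM (n = 2) in lungs and 105.2 ± 34.9 CPM (n = 6) in nodes (edgeR adjusted p = 0.0347). Gpc6, another glypican, was lower in lungs, at 3.98 ± 0.215 CPM (n = 2) against 21.0 ± 5.31 CPM (n = 6) in nodes (edgeR adjusted p = 0.0366). With title number as a block, 0 of all 18662 genes tested were called between lungs and nodes. Without the 8 libraries with a low-quality entry above 0, it was 0 of 18820. None of the calls in this paragraph held in either fit.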

How the data were processed

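Per the labels' protocols, total RNA was made into directional libraries. The submitters' processing notes name STAR 2.5.3a, bcl2fastq 1.8.4 and the build mm9. The authors deposited raw counts per Ensembl gene in a file for each library. How strand was counted, and with which annotation and tool version, is not given in the sources used here. Summary entries, which name no gene (49.2 to 75.0% of all entries per library), were left out. Symbols and exon lengths came from GENCODE vM21 (87.45% of identifiers matched, all 51 members), promoters from RefSeq.

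The members, lists and comparisons were chosen with earlier results of these data known. The 14 primaries were fitted in 1 model, and the HPN primaries, nodes and lungs (15 samples) in another, with edgeR 4.0.16 in R 4.3.3: filterByExpr, TMM, robust glmQLFit and glmQLFTest, Benjamini-Hochberg adjustment over all genes tested, threshold 0.05. "Called" means past that threshold. The tests between genotypes and of nodes against primaries were checked on simulated data, and the lung comparisons were not. The genes changed in that check did not include levels as low as those of Rspo4, Wnt3a, Wnt16, Wnt3, Wnt7b or Fzd9. For nodes against primaries the same holds for Wnt4 and Lgr5. CPM values were scaled by TMM over 23 libraries; node 7 is the mean of 7a and 7b.

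Members named with full values were those called in any of the 4 comparisons with a group mean of at least 1 CPM. The 3 highest of each class were named as well. Up to 5 other pathway genes were given with values per comparison, smallest p first. Called secretion and target genes are also named by role. Others are said to be picked afterwards. The alternatives were DESeq2 1.42.0, its size factors in edgeR, 2 filters, all 4 groups in 1 fit, nodes 7a and 7b apart, each sample left out, title number as a block, and the 8 libraries with a low-quality entry above 0 as a term or left out. That grouping is read from the entry alone, and no label names a batch. Both marker covariates, and the samples of the block without it, were added after seeing the data.

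HPN title numbers were read as animals, which is where the pairing comes from. Across genes, deviations of primaries and nodes with the same number had r = 0.253, -0.000523, -0.0825, 0.26 and 0.135 for numbers 3 to 7. Precision at low levels is limited by depth, since 3 counts correspond to between 0.0335 and 0.159 CPM, and intervals of pooled count ratios cover counting error only.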

Additional observations from a re-analysis of the deposited data

Results flagged for a closer look

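In 6 of the 75 sample groups examined (25 named members in HP primaries, HPN primaries and nodes), 1 sample stood apart from the rest of its group by more than Dixon's 95% limit on the log2(CPM + 0.5) scale. Chance alone gives about 1 in 20. Wnt4 was at 0.469 CPM in node 4, and the other nodes lay between 0.0432 and 0.146 CPM. Fzd3 was at 17.6 CPM in HPN primary 1, and the others lay between 7.51 and 9.61 CPM. In node 5, which had the lowest melanocyte sum of all libraries (4809 CPM), Lrp6 was at 157.1 CPM (others 221.3 to 244.7) and Dkk3 at 87.8 CPM (others 348.6 to 683.3). Lgr6 was at 0.0 CPM in HP primary 7, with the others between 3.87 and 13.7 CPM. Axin2 was at 26.1 CPM in HP primary 9, with the others between 50.5 and 76.9 CPM.

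The difference from primaries was not the same in lungs and nodes for Wnt3a, by the test of lung against node (log2 7.39, edgeR adjusted p = 0.0438). It rests on lung 4, as given above.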

How the results depend on the processing

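Between genotypes 0 members were called under every alternative run. Of the 2275 values of the 100 named differences under alternatives, 2135 kept their side of the threshold, 117 lost and 19 gained a call. A change of sign with no call in either fit counts among the 2135. In the remaining 4 the sign turned and a call was involved. The 4 were Wnt10a (3.63), Wnt3 (1.95) and Wnt7b (1.26) in nodes with the keratinocyte covariate, and Wnt3a in lung against node without lung 4 (-1.90). The count of 14 members lower in nodes became 9 with no filter on low counts, 6 with the keratinocyte covariate (with 9 higher), 5 with a term for the 8 libraries with a low-quality entry above 0, 3 without them, and 6 to 14 with 1 sample left out. With title number as a replicate block it was 5, and 4 in the same samples without the block. Of all genes, 1391 of 28107 fell with no filter and 1125 of 19152 with the term, beside 1878 of 19152 in the main fit.

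Lungs against primaries gave 3 lower members by DESeq2 and 1 higher (Wnt10b) with the keratinocyte covariate, in place of 0. The 1 member higher in lungs than in nodes became 5 by DESeq2 and 3 with the melanocyte covariate, where 769 and 1014 of all 19152 genes were higher. It became 2 with the keratinocyte covariate (726 of 19152 genes) or with nodes 7a and 7b apart (592 of 19215). The main fit gave 375 of 19152 genes. With 1 node sample left out the count was 0 to 4. The difference of Wnt3a there ran from -1.90 to 8.39 with 1 sample left out. The count became 0 with all 4 groups in 1 fit, under the replicate block or in the same samples without it, and with those 8 libraries as a term or left out. Under the block and with those libraries left out, 0 of all genes were called in this comparison. DESeq2 and the keratinocyte covariate each gave 1 lower member there, in place of 0. The cause of these changes was not tested. Depth limits Rspo4, Wnt3a, Wnt16 and Wnt7b in nodes, with 2, 2, 5 and 10 counts in all.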

Other observations

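The nodes differed among themselves in feedback genes and inhibitors. Axin2 was at 65.7 and 111.3 CPM in nodes 3 and 4 and between 18.8 and 35.3 CPM in the other 5 node libraries. Melanocyte markers summed to 32590 and 46631 CPM in nodes 3 and 4 and to between 4809 and 21735 CPM in the other 5, and B cell markers to 650.6 and 309.0 CPM against 1386 to 2894 CPM. Rnf43 had the opposite order, at 2.20 and 1.17 CPM in nodes 3 and 4 and between 5.71 and 12.1 CPM in the others. Wnt10a was at 0.47 and 0.469 CPM in nodes 3 and 4 and between 1.77 and 2.59 CPM in the others. Nodes 3, 4 and 8 are labelled brachial, and node 8 was at 35.3 CPM for Axin2 and 11.7 CPM for Rnf43, so it did not share the levels of nodes 3 and 4. These members and nodes were picked after the values were seen, and no test was run.

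Sfrp5 reached 63.9 CPM in node 6, and HPN primary 6 held 27.9 CPM, which was the highest among the HPN primaries. The other node libraries lay between 5.61 and 19.6 CPM, and both lungs were lower, at 0.64 and 2.83 CPM. Nodes 7a and 7b, from a cervical and an inguinal site under the same title number, were close in Lrp6 (220.7 and 221.9 CPM), Dkk3 (422.0 and 412.9 CPM) and Fzd8 (6.84 and 6.86 CPM). They were further apart in Sfrp5 (10.3 and 19.6 CPM), Axin2 (18.8 and 26.3 CPM), Lgr5 (0.616 and 1.57 CPM) and Lgr6 (0.196 and 0.913 CPM).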
